A study of Mus musculus with 12 samples.

Results

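The comparison covers the start and the end of plasmablast formation in wild-type (wt) mouse B cells: 2 libraries of plasmablasts against 2 libraries of activated B cells, 4 of the 12 libraries in the series. They were chosen by the titles of the libraries alone, and values were not used. All cells came from spleens of C57BL/6 mice, were taken with beads against B220 and grown for 4 days in lipopolysaccharide (LPS, 25 µg/ml), a bacterial cell wall component that makes B cells divide and secrete antibody. Every animal, control or not, carried a green fluorescent protein (GFP) reporter in 1 allele of Prdm1, the gene of Blimp1. The wt animals were Mzb1+/+ Prdm1+/gfp, and the knockout (ko) animals of the remaining libraries were Mzb1-/- Prdm1+/gfp, so every animal had 1 modified Prdm1 allele. Activated B cells (ActB) were sorted as CD138- and GFP-, pre-plasmablasts (PrePB) as CD138- and GFP+, and plasmablasts (PB) as CD138+ and GFP+. The age of the animals is not given, and the labels do not say whether the replicates of a group came from separate animals, so the p-values measure the spread between these libraries.

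Activated B cells that receive an LPS signal divide several times, and a fraction then switches on Blimp1, which represses the B cell programme and, with Xbp1 and Irf4, opens the programme of antibody secretion. A plasmablast is the stage at which secretion has begun while the cell is still cycling. Such a cell has to feed amino acids, energy and membrane into secretion, it clears damaged organelles and misfolded protein through lysosomes and autophagy, and it comes to depend on other survival and migration signals than the B cell it came from.

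The plasmablast markers stood where the labels put them. Sdc1, the gene of the sorting marker CD138, was at 0.989 and 0.978 FPKM (fragments per transcript length and sequenced total) in the 2 activated B cell libraries and at 76.3 and 88.2 in the 2 plasmablast libraries. Prdm1 was at 21.6 and 19.2 against 218 and 226 FPKM, and Jchain, which links immunoglobulin M and A units, at 69.4 and 103 against 19054 and 22617. For all 3 genes both plasmablast libraries were higher. The sort used CD138 and the Prdm1 reporter, so the differences of Sdc1 and Prdm1 were set in part by the gates. The 4 libraries summed to between 418966 and 581262 FPKM, with both plasmablast totals higher, and 10180 to 10321 genes reached 1 FPKM in each. Counts are not in the files, so absolute depth is unknown. Depth relative to plasmablast replicate 1 was read from shared ratios of genes below 0.5 FPKM. It was 1.59 and 1.66 in the activated B cell libraries and 0.928 in plasmablast replicate 2, so by this ratio the plasmablast libraries read as shallower. The scaling of the deposited values is not given and enters the ratio, which therefore need not equal the ratio of sequenced fragments. Small RNA genes took 0.974% to 2.27% of the totals. Replicate 1 of both wt groups carried Xist, transcribed from the inactive X chromosome, at 81.4 and 33.3 FPKM, and replicate 2 did not (0.0232 and 0.0249), and the Y-linked Eif2s3y was listed at 0 in the former and at 70.3 and 58.1 FPKM in the latter. Each wt group thus held 1 library of either sex.

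Of 24325 listed genes, 11069 reached 1 FPKM in at least 2 of the 12 libraries and were tested. Of these, limma called 3432 higher (31.0%) and 3432 lower (31.0%) in plasmablasts at a Benjamini-Hochberg adjusted p below 0.05, 62.0% in all. A called change of at least 1 on the log2(FPKM + 1) scale, the scale of every log2 change here, was reached by 1457 genes upward (13.2%) and 999 downward (9.03%). In each of the 6864 called genes both libraries of one group lay above both of the other, as they did in 81.0% of all tested genes. The split of calls depended on scaling: with every library brought to the same total FPKM, 2136 genes were higher and 5813 lower, and the median log2 change of all genes moved from -0.01 to -0.38 (to -0.06 with quantile normalization). Where that scaling or quantile normalization moves the split of a list's calls by over 10 percentage points, the split is given beside the count. These are bulk libraries, in which a lower level in every cell and a smaller number of cells with the transcript cannot be told apart.

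**Figure D1:**
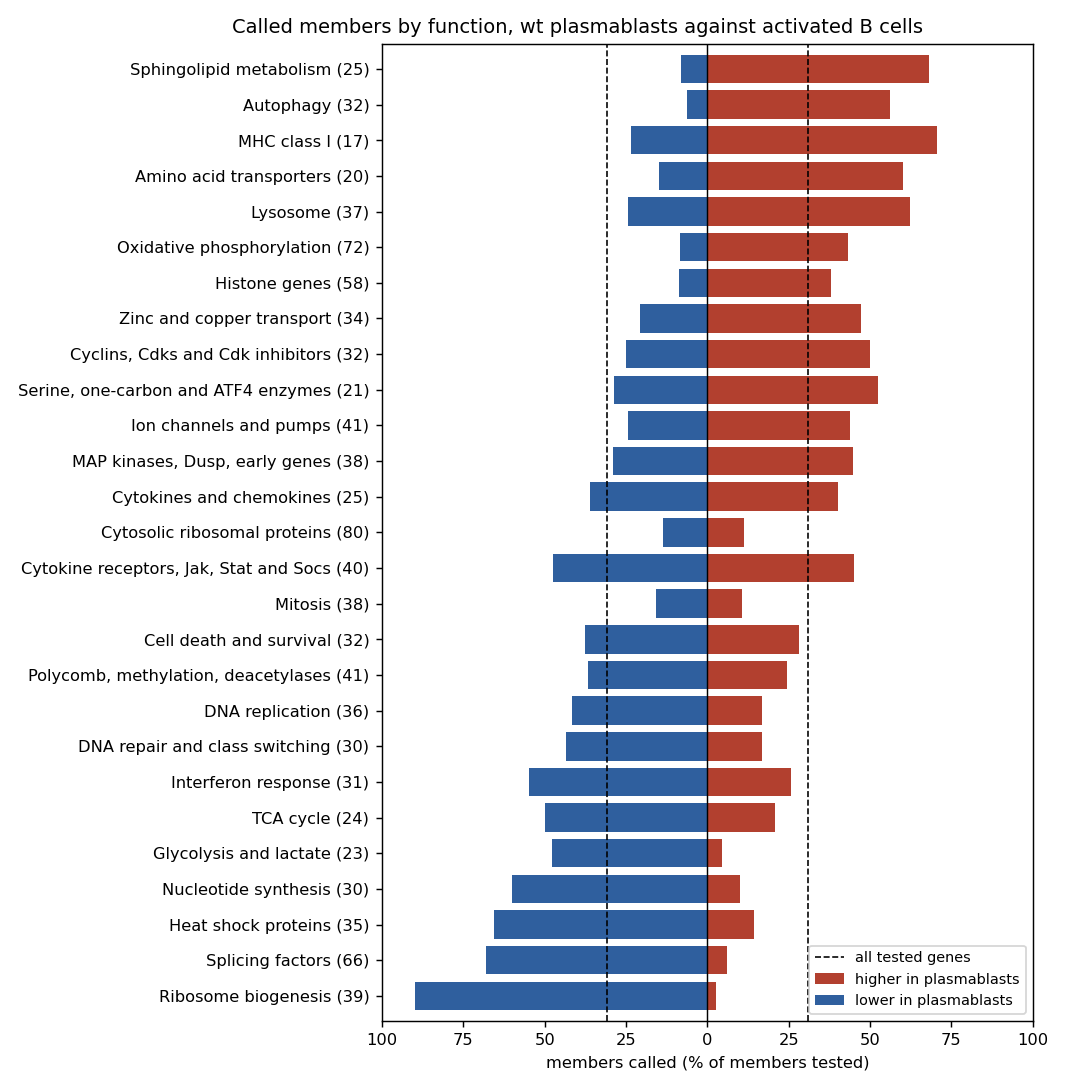
Share of the tested members of 27 function lists called higher (right, red) or lower (left, blue) in wt plasmablasts than in wt activated B cells, in percent of the members tested, whose number stands in parentheses. The dashed lines mark 31.0% on each side, the share of all tested genes; sphingolipid, autophagy and lysosome genes lie to the right, ribosome biogenesis and splicing genes to the left, and mitosis and ribosomal protein genes were called seldom in either direction.

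Few genes of the mitotic machinery were called across the whole span, while Cdkn2a and Cdkn2b, inhibitors of entry into the cell cycle, were called higher. Of 38 tested mitosis genes, 4 rose and 6 fell, 26.3% called beside 62.0% of all genes, with a median log2 change of -0.09 beside -0.01. Quantile normalization gave 3 and 9. Under equal totals 1 was called higher and 24 lower, with a list median of -0.50 beside -0.38 for all genes. Birc5, a subunit of the chromosomal passenger complex, was at 138 and 132 FPKM in activated B cells and 134 and 132 in plasmablasts, and cyclin A2 (Ccna2) at 97.3 and 98.6 and 98.3 and 102. In both genes the groups overlapped. Both were called lower under equal totals. The largest called fall was that of Kif23, a kinesin of the cytokinesis midzone, from 34.5 and 31.5 to 15.5 and 14.3 FPKM (log2 change -1.10, SE 0.14, adjusted p = 5.51e-05). Ube2c and Cdc20, which work with the anaphase-promoting complex, rose with log2 changes of 0.69 and 0.48; both calls were lost under equal totals (0.28 and 0.07), and that of Cdc20 also when replicate 1 of every wt group was left out.

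Mitosis genes share a promoter element, the cell cycle homology region, through which they are repressed outside the late cell cycle. The letters TTTGAA, searched on both strands from 250 bases before to 50 after each annotated start (RefSeq, GRCm38.p6; 8459 of the 11069 tested genes matched by symbol), were found in 24 of the 32 mitosis genes with a promoter (75%) and in 14.1% of all 8459 genes. Of these 24 genes, 3 rose, 3 fell and 18 were not called, and of all 32, 4 rose, 4 fell and 24 were not called. The 60 bases before the start of Cdc20 (chr4:118437344-118437403 on the minus strand), Ube2c (chr2:164769869-164769928 on the plus strand) and Top2a (chr11:99024190-99024249 on the minus strand) are shown because they hold the element, 5′ to 3′ along the gene, with the matched letters in capitals (TTCAAA is the match on the other strand).
Cdc20: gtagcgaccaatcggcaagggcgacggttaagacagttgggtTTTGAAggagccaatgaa
Ube2c: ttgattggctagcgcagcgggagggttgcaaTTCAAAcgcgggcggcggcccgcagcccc
Top2a: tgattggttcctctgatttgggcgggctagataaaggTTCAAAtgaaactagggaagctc

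Top2a, the topoisomerase that untangles sister chromosomes, was at 165 and 133 FPKM in activated B cells and 118 and 117 in plasmablasts, not called (adjusted p = 0.0679 by limma). Other settings called it lower, among them equal totals and quantile normalization. A match describes the letters in this window and is not a measured binding site.

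Inhibitors of the G1 kinases moved in both directions. Cdkn2a, whose locus encodes an inhibitor of Cdk4 and Cdk6 and, in another reading frame, the Arf protein that stabilises p53, was at 23.7 and 25.3 FPKM in activated B cells and at 206 and 177 in plasmablasts, 7.51-fold on the FPKM + 1 scale (log2 change 2.91, SE 0.17, adjusted p = 9.61e-08). Its neighbour Cdkn2b, another inhibitor of the same kinases, went from 3.08 and 4.33 to 46.4 and 41.3 FPKM (9.61-fold). Both plasmablast libraries lay above both activated B cell libraries, as in every gene called higher. The PrePB means of Cdkn2a and Cdkn2b, 107 and 23.2 FPKM, lay in between. Cdkn2c, the inhibitor long tied to plasma cell differentiation, rose by 0.86 on the log2 scale and Cdkn2d fell (-1.57). Cyclin D3 (Ccnd3), the D-type cyclin of dividing germinal centre B cells, fell from 78.8 and 96.9 to 21.3 and 25.6 FPKM (log2 change -1.86, SE 0.13, adjusted p = 4.61e-07). Cdk4 was at 296 and 306 and 294 and 293 FPKM, with no call (log2 change -0.04), and was called lower under equal totals and with quantile normalization. In the list of cyclins, Cdks and their inhibitors, 16 of 32 members rose and 8 fell (5 and 16 under equal totals, where the list median of 0.19 turned to -0.21).

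DNA replication genes moved in both directions. Of 36 tested, 6 rose and 15 fell (median -0.13, and 2 up and 26 down under equal totals). In all 58.3% were called, near the 62.0% of all tested genes. Cdt1, which loads the replicative helicase, rose from 24.3 and 20.7 to 49.5 and 46.1 FPKM, and the flap endonuclease Fen1 from 72.3 and 71.1 to 133 and 144. The polymerase delta catalytic subunit Pold1 fell from 49.1 and 49.5 to 18.5 and 18.0 FPKM (log2 change -1.39, SE 0.09, adjusted p = 3.83e-07) and the single-strand binding subunit Rpa1 from 122 and 133 to 62.6 and 59.2. Mcm2 of the helicase and the sliding clamp Pcna were not called (both were called lower under equal totals, and Pcna with quantile normalization), at 81.8 and 153 FPKM on average in activated B cells and 83.2 and 142 in plasmablasts. Letters of an E2F site (TTTCCCGC, TTTGGCGC or TTTGGCGG, either strand) were found in 14 of 28 replication genes with a promoter and in 4.63% of all genes. Of these 14, 2 rose, 8 fell and 4 were not called, and of all 28, 4 rose, 12 fell and 12 were not called. Among 30 genes of DNA repair and class switching, 5 rose and 13 fell (1 up and 21 down under equal totals). The abasic site nuclease Apex1 (-1.55), the break-signalling kinase Atm (-1.66) and the end-joining kinase Prkdc (-1.33) fell, while Lig4, the ligase of end joining, rose from 5.07 and 4.28 to 13.4 and 15.8 FPKM (log2 change 1.46, SE 0.13, adjusted p = 2.82e-06).

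Most genes that build ribosomes fell, while few genes of the ribosome itself were called, under the deposited scaling. Of 39 tested ribosome biogenesis genes, 35 fell and 1 rose, beside 31.0% of all genes in each direction, with a median log2 change of -0.65. Dkc1, the pseudouridine synthase of box H/ACA particles, was at 65.3 and 61.6 FPKM in activated B cells and 24.1 and 20.6 in plasmablasts (log2 change -1.47, SE 0.10, adjusted p = 4.66e-07). The nucleolar chaperone Npm1 went from 199.8 and 197 to 90.9 and 80.4 FPKM. Rrp1b and Polr1e, a processing factor and an RNA polymerase I subunit, had log2 changes of -1.28 and -1.23. Both plasmablast libraries were the lower ones in these 4 genes, as in every gene called lower. The member that rose was Gnl3, nucleostemin, from 64.0 and 52.4 to 105 and 106 FPKM (log2 change 0.85, SE 0.11, adjusted p = 4.92e-05). Of 80 genes of cytosolic ribosomal proteins, 9 rose and 11 fell (25.0% called, median 0.05); under equal totals 5 rose and 39 fell, with quantile normalization 6 and 32, and many of these genes have near-identical copies that a read cannot always be assigned between.

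Most called genes of nucleotide supply were lower too. Of 30 genes of the pentose phosphate pathway and nucleotide synthesis, 18 fell and 3 rose (1 up and 25 down under equal totals; median -0.49). In de novo purine synthesis Ppat, the first committed enzyme, fell from 26.8 and 24.8 to 10.7 and 10.7 FPKM, Gart from 87.0 and 74.9 to 36.7 and 33.7 and Atic, which closes the purine ring, from 107 and 106 to 40.6 and 36.8 (log2 change -1.44, SE 0.10, adjusted p = 4.06e-07 for Atic). The salvage enzyme thymidine kinase, Tk1, fell by 1.36 on the log2 scale. Rrm2, the ribonucleotide reductase subunit, was not called (165 and 172 against 191 and 191 FPKM). In the other direction Impdh1, one of the enzymes that commit inosine monophosphate to guanine nucleotides, rose from 14.5 and 13.4 to 100.98 and 96.7 FPKM, 6.67-fold (log2 change 2.74, SE 0.08, adjusted p = 1.17e-09).

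Genes of serine and one-carbon metabolism, which feeds purine and thymidylate synthesis, moved in both directions. Of 21 genes of serine, one-carbon and Atf4-linked metabolism, 11 rose and 6 fell (6 and 8 under equal totals, 7 and 8 with quantile normalization; median 0.28, and -0.13 under equal totals). The folate enzymes Mthfd1 (63.5 and 59.2 to 33.1 and 25.5 FPKM) and Mthfd1l (51.6 and 51.6 to 21.6 and 20.5) fell, and so did Cth, which makes cysteine from cystathionine (63.8 and 67.0 to 17.5 and 19.5). Pycr1, the last enzyme of proline synthesis, rose from 6.34 and 4.36 to 48.3 and 50.5 FPKM, 8.03-fold (log2 change 3.01, SE 0.13, adjusted p = 1.47e-08), and Aldh18a1, the first enzyme of that route, by 0.81 on the log2 scale. The glutathione-degrading enzyme Chac1 and the transcription factor Atf5, both targets of the Atf4 stress response, rose with log2 changes of 2.67 and 1.604. Trib3, known as a target of the same response, fell (-1.29).

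Amino acid transporters rose in 12 of 20 and fell in 3 (median 0.76; 11 up and 8 down under equal totals). Slc3a2, the heavy chain shared by the large neutral amino acid exchangers and by integrin signalling, was at 119 and 116 FPKM in activated B cells and 662 and 818 in plasmablasts (log2 change 2.64, SE 0.15, adjusted p = 1.10e-07). Its light chain partners Slc7a8 (0.223 and 0.279 to 8.03 and 8.31 FPKM) and Slc7a7 (16.6 and 17.2 to 37.7 and 50.6) rose too, as did their relative from another family, Slc38a10 (2.05). The taurine carrier Slc6a6 and the neutral amino acid carrier Slc43a2 fell with log2 changes of -1.56 and -1.81.

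**Figure D2:**
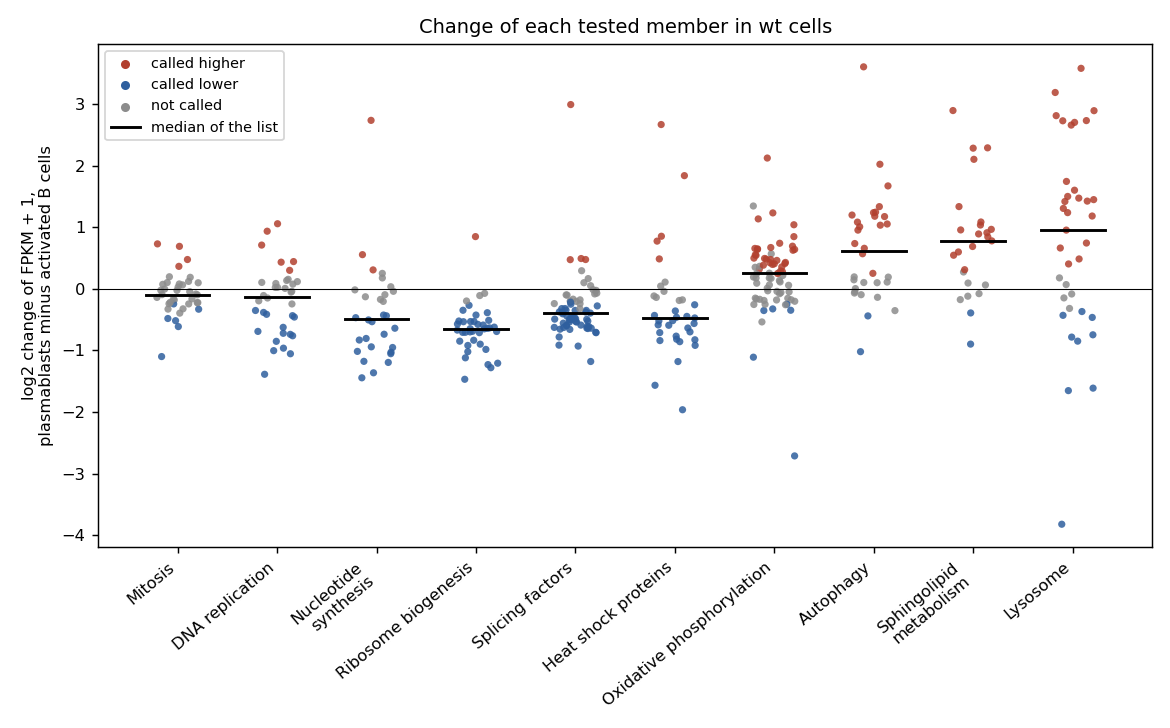
Log2 change of FPKM + 1 of each tested member of 10 lists, wt plasmablasts minus wt activated B cells; each point is a gene, red called higher, blue called lower and grey not called, and the black bars are list medians. Ribosome biogenesis genes lie below 0 except Gnl3 at 0.85, mitosis genes run from -1.10 (Kif23) to 0.73, and the lysosome genes lie on both sides of 0 and reach 3.58 (Ctsl).

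RNA splicing factors and the heat shock proteins of cytosol and mitochondria were lower as well. Of 66 splicing factors, 45 fell and 4 rose (median -0.40), among them the small nuclear particle protein Snrpb2 (55.2 and 54.5 to 25.3 and 22.1 FPKM) and the serine-arginine protein Srsf3 (55.8 and 57.9 to 28.8 and 29.995). Hnrnpll, which changes the splicing of Cd45 in lymphocytes and of immunoglobulin in plasma cells, rose from 0.841 and 1.01 to 14.2 and 14.4 FPKM, 7.97-fold (log2 change 2.99, SE 0.13, adjusted p = 1.35e-08). Of 35 heat shock genes outside the endoplasmic reticulum (ER), 23 fell and 5 rose (median -0.47). The mitochondrial chaperonin Hspd1 fell from 87.9 and 77.9 to 38.0 and 34.0 FPKM, the cochaperone Dnajc7 from 212 and 302 to 83.3 and 86.3 and the cytosolic Hsp90aa1 from 61.2 and 54.9 to 32.2 and 28.4. The small heat shock gene Hspb1 rose from under 1 FPKM in both activated B cell libraries to 6.35 and 6.64.

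Central energy metabolism changed gene by gene. Of 23 genes of glycolysis and lactate handling, 11 fell and 1 rose. That is 52.2% called beside 62.0% of all tested genes, and 47.8% lower beside 31.0%. Pfkfb3, which makes the activator of phosphofructokinase, fell from 24.8 and 25.2 to 6.35 and 5.36 FPKM (log2 change -1.93, SE 0.11, adjusted p = 8.93e-08), the hexose carrier Slc2a6 by 1.22 and glucose phosphate isomerase Gpi1 by 0.82 on the log2 scale. The member that rose, pyruvate kinase Pkm (0.59), was not called under equal totals, with quantile normalization or when replicate 1 of every wt group was left out. In the tricarboxylic acid (TCA) cycle list 5 of 24 rose and 12 fell (3 up and 18 down under equal totals). Its called share was 70.8%, with 50.0% lower and 20.8% higher. Fumarase, Fh1, fell from 97.6 and 111 to 38.1 and 35.0 FPKM and the isocitrate dehydrogenase subunit Idh3a from 55.8 and 53.4 to 23.9 and 22.4, whereas cytosolic malate dehydrogenase, Mdh1, which works in the malate-aspartate shuttle, rose from 162 and 181 to 513 and 494 (log2 change 1.55, SE 0.11, adjusted p = 4.02e-07). In none of these 3 genes did the groups overlap, which holds for every called gene.

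Respiratory chain genes rose in 31 of 72 and fell in 6 (median 0.25), but the direction of the list turned with scaling: 10 rose and 30 fell under equal totals (median -0.16), and 14 rose and 26 fell with quantile normalization (median -0.12). Single members held under both. Ndufa1 of complex I rose from 165 and 187 to 729 and 812 FPKM (log2 change 2.13, SE 0.10, adjusted p = 2.54e-08; 1.71 under equal totals) and Uqcrq of complex III from 348 and 381 to 776 and 727 (0.63 under equal totals). Cox7a1, the heart and muscle form of a complex IV subunit, was at 5.94 and 5.19 FPKM in activated B cells and was listed at 0 in both plasmablast libraries.

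Lysosomal genes were called higher more often than lower. Of 37 lysosome genes, 23 rose and 9 fell (21 and 13 under equal totals), with a median log2 change of 0.96 (0.55 under equal totals, beside -0.38 for all genes). Cathepsin L (Ctsl), a cysteine protease, was at 3.62 and 2.502 FPKM in activated B cells and 47.8 and 46.6 in plasmablasts (log2 change 3.58, SE 0.16, adjusted p = 2.05e-08). Beta-glucuronidase, Gusb, went from 48.8 and 50.3 to 428 and 496 FPKM, beta-galactosidase, Glb1, from 21.5 and 26.2 to 170.4 and 196 and cathepsin D, Ctsd, from 69.4 and 98.1 to 552 and 622. In all 4 genes each plasmablast library was at least several times each activated B cell library. Members that fell included the protease cathepsin H (Ctsh) from 187 and 243 to 65.9 and 72.6 and the sphingolipid activator precursor Psap from 471 and 633 to 284 and 323. Tfeb, a transcription factor that switches on lysosome genes, was itself lower (50.4 and 62.8 against 15.4 and 19.3 FPKM, log2 change -1.65), and its relative Tfe3 was not called (21.7 and 24.8 against 23.3 and 25.5 FPKM).

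Tfeb and Tfe3 bind the CLEAR element of lysosomal promoters. Its central letters TCACGTGA, a palindrome that reads the same on both strands and contains the shorter E-box CACGTG, were found in 5 of 30 lysosome genes with a promoter (16.7%) and in 2.46% of all 8459 genes. Of these 5 genes 4 rose (Ctsa, Ctsd, Mcoln1 and Atp6v0d1) and 1 fell (Atp6v1a). Of all 30 lysosome genes with a promoter, with these letters or without, 20 rose and 6 fell. The stretches before the starts of Ctsd (chr7:142387893-142387952 on the minus strand) and Mcoln1 (chr8:3500447-3500506 on the plus strand), GRCm38.p6, are shown with the match in capitals.
Ctsd: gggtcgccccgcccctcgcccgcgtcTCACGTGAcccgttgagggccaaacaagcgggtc
Mcoln1: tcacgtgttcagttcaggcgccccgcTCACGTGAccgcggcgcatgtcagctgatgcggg

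Mcoln1, the calcium channel of the lysosomal membrane, rose from 17.8 and 14.8 to 25.4 and 30.7 FPKM. It was picked for its promoter after its values were seen. In the sphingolipid list 17 of 25 rose and 2 fell (median 0.78; 14 up and 7 down under equal totals). Alpha-galactosidase, Gla, whose loss causes Fabry disease, went from 4.56 and 4.32 to 39.8 and 39.3 FPKM and acid sphingomyelinase, Smpd1, from 15.04 and 16.04 to 82.6 and 77.3, log2 changes of 2.90 and 2.29 with SEs of 0.13 and 0.10. Of the synthesis side, ceramide synthase Cers4 rose from 4.59 and 4.38 to 23.96 and 21.3 FPKM, and the sphingosine phosphate phosphatase Sgpp1 fell (-0.90). Autophagy genes rose in 18 of 32 and fell in 2 (median 0.62; 15 up and 11 down under equal totals, where the median was 0.23). Wipi1, which reads the phosphoinositide of the forming autophagosome, was under 1 FPKM in both activated B cell libraries and at 16.8 and 20.2 in plasmablasts (log2 change 3.61, SE 0.13, adjusted p = 3.40e-09). Atg13 of the initiating kinase complex went from 13.3 and 16.1 to 60.9 and 64.6 FPKM and Map1lc3a from 7.57 and 6.49 to 24.4 and 24.7. The receptor Optn fell (-1.02), and Becn1 was not called, at 89.4 and 94.6 against 93.1 and 91.6 FPKM.

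Genes of zinc handling moved in both directions. Of 34 genes of zinc and copper transport, 16 rose and 7 fell (median 0.46, and 15 up and 13 down under equal totals). The called share of 67.6% was near the 62.0% of all tested genes, with 47.1% higher and 20.6% lower beside 31.0% each way. The metallothioneins, which bind zinc and copper in the cytosol and are induced by free metal, rose: Mt1 from 88.4 and 63.2 to 524 and 390.4 FPKM and Mt2 from 4.76 and 8.43 to 115 and 88.2 (log2 change 3.79, SE 0.30, adjusted p = 1.15e-06 for Mt2). Slc39a4, the importer best known from the gut and from acrodermatitis enteropathica, rose from 4.35 and 4.34 to 41.6 and 38.3 FPKM and Slc39a11 from 10.1 and 10.98 to 64.9 and 67.5. Slc39a10, the importer known for B cell survival and receptor signalling, fell from 6.44 and 5.54 to 1.77 and 2.19 FPKM, and Slc39a3 fell with a log2 change of -0.83. The groups overlapped in none of these 6 genes, which holds for every called gene. Reads of Mt1 and Mt2, which are close copies, may be shared. The letters of a metal response element, TGCACNC or TGCGCNC on either strand, are short and were found in 16 of 28 members with a promoter and in 40.5% of all genes.

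Interferon response genes moved in both directions, and more of them down. Of 31 tested, 8 rose and 17 fell (median -0.52). Irf7, the master factor of type I interferon induction, was at 5.67 and 5.65 FPKM in activated B cells and 129 and 146 in plasmablasts (log2 change 4.37, SE 0.17, adjusted p = 7.96e-09). The exonuclease Isg20 went from 11.4 and 12.03 to 233 and 252 FPKM, the membrane tether Bst2 from 65.9 and 62.2 to 368 and 352 and the nucleic acid sensor Zbp1 from 39.8 and 44.6 to 214 and 231. Falling genes included the GTPase Gbp2 (58.5 and 74.6 to 5.31 and 3.32 FPKM, log2 change -3.68), the RNA sensor Ifih1 (-2.18) and the oligoadenylate synthetases Oas2 (-2.45) and Oas1a (-2.08), which have close relatives that could share reads.

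Genes of both directions carried the letters of the interferon-stimulated response element. GAAA, any 2 bases and GAAA again, on either strand, was found in 13 of 23 members with a promoter (56.5%) and in 3.79% of all 8459 genes. Of the 13, 4 rose, 8 fell and 1 was not called, and of all 23, 7 rose, 12 fell and 4 were not called. Bst2 (chr8:71537562-71537621 on the minus strand) and Igtp (chr11:58199496-58199555 on the plus strand), which rose, are shown beside Gbp2 (chr3:142620579-142620638 on the plus strand) and Oas1a (chr5:120907526-120907585 on the minus strand), which fell, all GRCm38.p6, with matches in capitals; in Bst2 and Oas1a 2 matches overlap, and in Gbp2 the match is on the other strand, TTTC, 2 bases and TTTC.
Bst2: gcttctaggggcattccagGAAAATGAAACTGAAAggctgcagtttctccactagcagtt
Igtp: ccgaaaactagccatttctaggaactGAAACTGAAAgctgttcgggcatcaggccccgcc
Gbp2: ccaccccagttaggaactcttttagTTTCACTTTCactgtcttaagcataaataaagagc
Oas1a: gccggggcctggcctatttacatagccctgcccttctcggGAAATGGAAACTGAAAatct

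Igtp, a GTPase of the immunity-related family chosen here for its promoter after its values were seen, went from 10.5 and 12.2 to 34.5 and 28.9 FPKM. In the list of major histocompatibility complex (MHC) class I genes and antigen processing, 12 of 17 rose and 4 fell (median 1.34, 0.74 with quantile normalization). The light chain B2m rose from 1774 and 2126 to 7961 and 8101 FPKM (log2 change 2.05, SE 0.15, adjusted p = 5.91e-07), the peptide editor Tapbpl from 18.9 and 19.0 to 111 and 116 and the class Ib gene H2-Q7, whose reads may be shared with near-identical family members, from 36.2 and 25.7 to 152 and 129. The immunoproteasome subunit Psmb8 fell from 335 and 369 to 228 and 218 FPKM and Nlrc5, the transactivator of class I genes, from 31.6 and 22.8 to 13.9 and 12.6. The peptide transporter Tap1 was not called (119 and 131 against 129 and 123 FPKM).

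**Figure D3:**
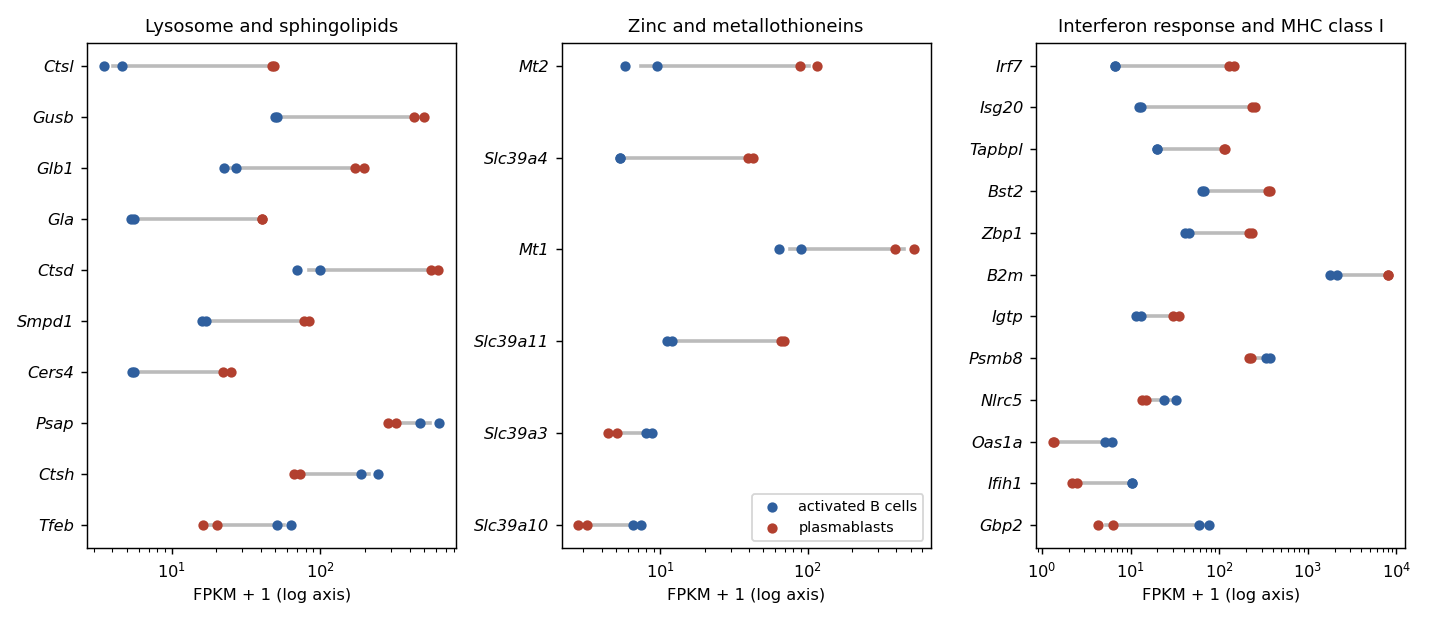
FPKM + 1 on a log axis in the 2 wt activated B cell libraries (blue) and the 2 wt plasmablast libraries (red) for lysosome and sphingolipid genes, zinc genes, and interferon response and MHC class I genes; grey lines join the geometric means of the groups. The points of the groups do not overlap in any of these genes, which holds for every called gene. Each panel holds genes of both directions, such as Gusb and Ctsh, Mt2 and Slc39a10, and Irf7 and Gbp2.

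Cytokine genes moved in both directions. Of 25 tested cytokines and chemokines, 10 rose and 9 fell. Il10, an anti-inflammatory cytokine known from regulatory plasma cells, was at 14.7 and 17.3 FPKM in activated B cells and 138 and 80.9 in plasmablasts (log2 change 2.65, SE 0.31, adjusted p = 2.55e-05). The chemokines Ccl3 (4.62 and 4.84 to 60.5 and 35.1 FPKM) and Ccl4 (4.25 and 5.31 to 47.7 and 29.4) and the angiogenic factor Vegfa (16.9 and 13.3 to 104 and 131) rose. For Il10, Ccl3 and Ccl4 replicate 1 of the plasmablasts was the higher. Il6 fell from 11.4 and 11.8 FPKM and was listed at 0 in both plasmablast libraries. Tnf fell from 5.59 and 3.89 to 0.290 and 0.208, the Il6-family cytokine Osm from 10.3 and 9.81 to 0.558 and 1.20 and the chemokine Ccl22 from 32.2 and 26.4 to 5.06 and 2.73.

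Almost all measured cytokine receptors and signal carriers were called, in both directions. Of 40 genes of cytokine receptors, Jak, Stat and Socs proteins, 18 rose and 19 fell, 92.5% called beside 62.0% of all genes. Il10ra, the ligand-binding chain of the Il10 receptor, fell from 87.0 and 100.8 to 0.993 and 1.96 FPKM, 39.0-fold (log2 change -5.28, SE 0.20, adjusted p = 6.54e-09), in the libraries in which Il10 was higher. Il4ra fell from 35.4 and 41.0 to 6.13 and 7.17 FPKM and the kinase Jak1 from 93.7 and 100.9 to 31.97 and 31.2. Il6st, the shared signalling chain of the Il6 family, rose from 4.26 and 3.01 to 31.1 and 30.5 FPKM, Il5ra from 1.28 and 1.47 to 16.8 and 16.2, Il2rb from 0.583 and 0.559 to 16.8 and 7.34 and the interferon receptor chain Ifnar2 from 25.6 and 29.8 to 137 and 157. Receptors of migration and survival changed as well. Ccr10, which guides plasma cells to mucosal tissue, rose from 1.401 and 0.807 to 12.7 and 10.4 FPKM, and Tnfrsf17, the Bcma receptor, from 0 and 0.133 to 25.8 and 25.0. The follicle and lymph node homing receptors Cxcr5 and Ccr7 fell with log2 changes of -2.88 and -5.04.

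The Bcl2 family, which sets the threshold of mitochondrial cell death, held protective and killing members that moved each way. Bcl2 fell from 20.7 and 23.04 to 4.33 and 4.55 FPKM (log2 change -2.07, SE 0.12, adjusted p = 1.26e-07) and Bcl2a1b, one of several near-identical copies between which reads may be split, from 128 and 155 to 24.4 and 18.6. The protective Bcl2l1 (Bcl-xL) rose from 13.9 and 13.8 to 138 and 135 FPKM, 9.27-fold (log2 change 3.21, SE 0.08, adjusted p = 6.94e-10), and Mcl1, on which plasma cells depend, from 231 and 251 to 382 and 405. Killers of the BH3-only class rose beside them: Bcl2l11 (Bim) from 36.0 and 30.1 to 308 and 276 FPKM and Bmf from 4.67 and 4.803 to 20.8 and 25.1, while Bid fell (-1.32). Bax, which opens the mitochondrial membrane, was not called (297 and 323 against 364 and 347 FPKM) and was called lower with quantile normalization. Of 32 genes of cell death and survival, 9 rose and 12 fell (4 up and 21 down under equal totals). That is 65.6% called, near the 62.0% of all tested genes.

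**Figure D4:**
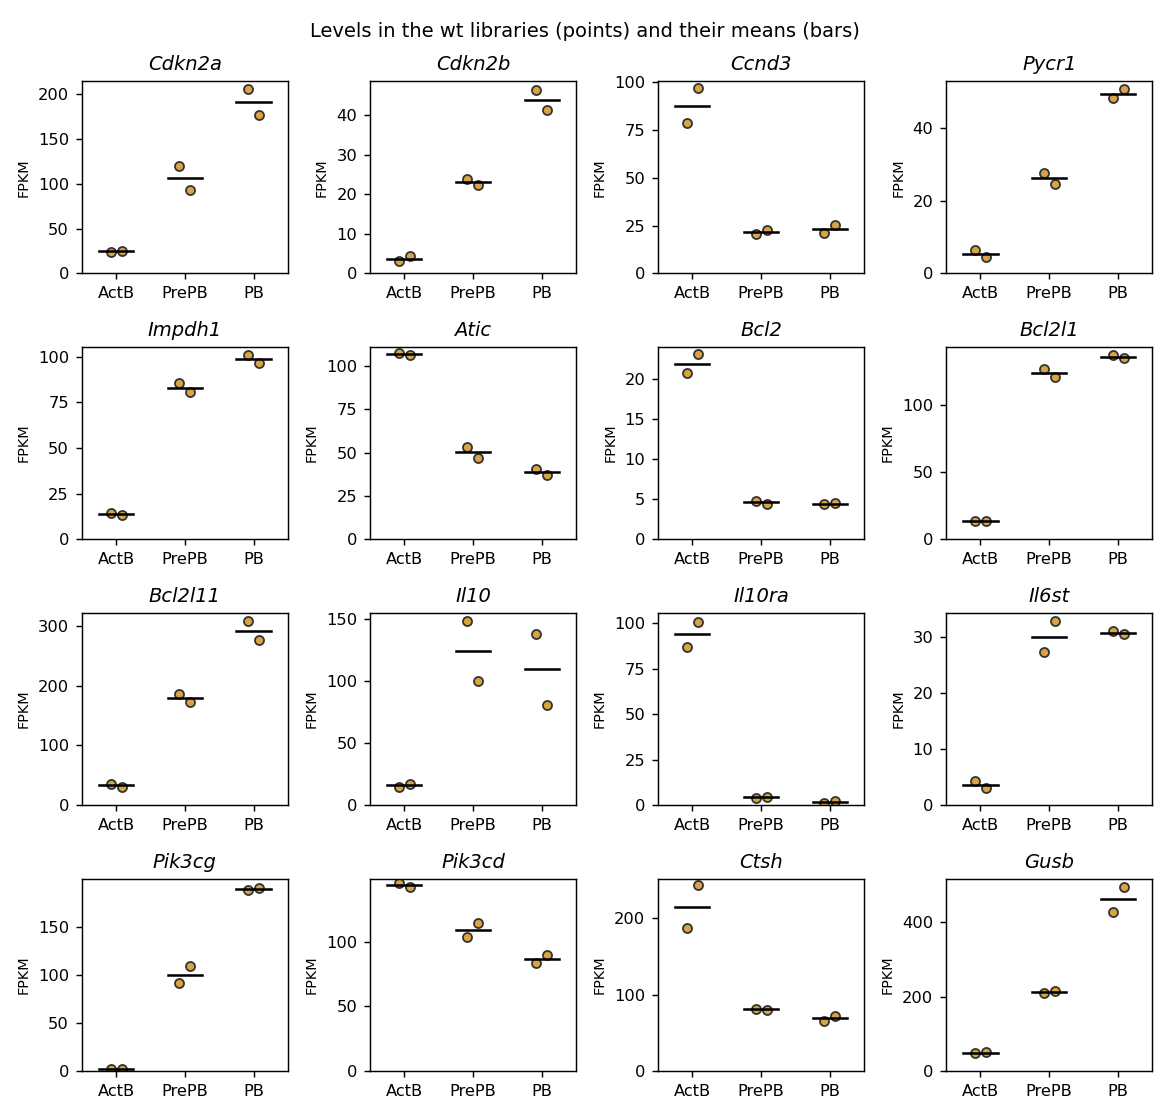
FPKM of 16 genes in the wt libraries of activated B cells (ActB), pre-plasmablasts (PrePB) and plasmablasts (PB); points are libraries, 2 a group, and bars their means. Bcl2 and Ccnd3 are low in pre-plasmablasts already, Bcl2l1, Impdh1 and Il6st are high there, and Cdkn2a, Cdkn2b, Pycr1, Pik3cg and Gusb are higher again in plasmablasts.

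Related signalling genes moved in opposite directions. Pik3cg, the phosphoinositide kinase subunit that answers to G protein coupled receptors, went from 1.98 and 2.06 FPKM to 188 and 190.4, 62.9-fold (log2 change 5.97, SE 0.15, adjusted p = 6.83e-10). Pik3cd, the subunit that serves the B cell receptor and was picked as its counterpart after its values were seen, fell from 146 and 143 to 83.8 and 89.5 FPKM. In plasmablasts the FPKM level, which is scaled to transcript length, was therefore higher for Pik3cg than for Pik3cd in both libraries, and in activated B cells lower in both. Of 38 MAP kinases, Dusp phosphatases and immediate early genes, 17 rose and 11 fell (13 and 15 under equal totals; median 0.30, and -0.09 under equal totals). Fos rose from 18.9 and 9.89 to 152 and 118 FPKM, Egr2 from 3.59 and 2.47 to 30.5 and 27.2 and the phosphatases Dusp1 and Dusp4 with log2 changes of 3.21 and 2.80. Dusp10, a phosphatase of the stress kinases, fell from 29.0 and 35.9 to 1.35 and 1.52 FPKM. Zfp36, which degrades cytokine messages, rose from 83.1 and 59.2 to 587 and 572 (log2 change 3.03, SE 0.14, adjusted p = 2.07e-08).

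Among 41 ion channels and pumps, 18 rose and 10 fell (13 and 17 under equal totals, where the median of 0.22 turned to -0.12). In all 68.3% were called, near the 62.0% of all tested genes, with 43.9% higher and 24.4% lower beside 31.0% each way. Saraf, a brake on store-operated calcium entry, rose from 17.8 and 19.7 to 219 and 229.8 FPKM (log2 change 3.51, SE 0.08, adjusted p = 4.16e-10), and Cacna1h, a voltage-gated calcium channel best known from neurons, from 0.149 and 0.124 to 34.3 and 33.8. The ER calcium release channel Itpr1 fell from 46.8 and 38.0 to 5.27 and 4.52 FPKM and the proton channel Hvcn1, which supports B cell receptor signalling, from 123 and 151 to 10.7 and 11.5. Pls1, an actin bundling protein of intestinal microvilli, rose from near 0 (0.0245 and 0.0235 FPKM) to 10.0 and 9.86.

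Linker histones and class IIa deacetylases were the chromatin genes with the largest rises named here. Hist1h1c, a linker histone, rose from 6.64 and 7.14 to 106 and 107 FPKM (log2 change 3.77, SE 0.11, adjusted p = 1.83e-09) and H1f0, the linker histone of cells that leave the cycle, from 6.67 and 8.06 to 50.6 and 59.6. Of 58 histone genes 22 rose and 5 fell (15 up and 10 down under equal totals), but most replication-linked histone messages lack a poly(A) tail and the libraries were selected with oligo-dT, so these levels may miss much of the message. In the list of polycomb, DNA methylation and deacetylase genes 10 of 41 rose and 15 fell (7 up and 26 down under equal totals). Its called share of 61.0% was near the 62.0% of all tested genes. The deacetylases Hdac9 (4.18 and 5.13 to 22.1 and 22.02 FPKM), Hdac7 (26.1 and 22.6 to 69.8 and 77.6) and Hdac5 (1.26 on the log2 scale) rose. Hdac1 fell from 21.97 and 23.4 to 7.99 and 9.35 FPKM, the DNA methyltransferase Dnmt3a from 8.86 and 9.56 to 3.09 and 3.33 and the methylcytosine dioxygenase Tet3 from 11.4 and 9.26 to 3.72 and 3.18. Other transcription factors changed further: Klf2, a factor of quiescence and lymphocyte trafficking, fell from 119 and 152 to 1.43 and 1.09 FPKM (log2 change -5.91, SE 0.43, adjusted p = 6.02e-07), and Zbtb32, a zinc finger repressor of activated lymphocytes, from 298 and 366 to 6.56 and 7.44.

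Large changes were also found in genes best known from other tissues. Slpi, a protease inhibitor of mucosal secretions, was at 3.66 and 14.5 FPKM in activated B cells and 1171 and 5171 in plasmablasts (log2 change 8.18, SE 0.99, adjusted p = 3.59e-05); replicate 2 was several times replicate 1 in both groups. The epithelial adhesion protein Epcam rose from 0.873 and 0.882 to 61.1 and 45.4 FPKM, the extracellular matrix protein Papln from 0.146 and 0.0600 to 30.04 and 42.1 and the lactonase Pon3 of liver and lipoproteins from 5.13 and 7.20 to 193 and 278. Gpx3, the plasma glutathione peroxidase, rose with a log2 change of 4.69, the oocyte secreted protein Oosp1 with 4.47 and the RNA-binding translational regulator Cpeb3 with 4.27. Large falls were those of the calcium-binding proteins S100a4 (26.6 and 55.6 FPKM, and listed at 0 in both plasmablast libraries) and S100a6 (78.9 and 129 to 2.34 and 1.402), of the Dickkopf family member Dkk3 (14.5 and 45.0 to 0.0431 and 0.232) and of Haao, an enzyme of tryptophan breakdown (46.8 and 54.3 to 1.06 and 0.428).

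Markers of other blood cells moved in some cases with these changes. Of 11 T cell markers in the files 3 passed the filter: Cd28 rose from 1.62 and 1.28 to 25.8 and 31.7 FPKM and Cd3g from 0.207 and 0.596 to 4.12 and 3.19, Lck was not called (9.11 and 6.56 against 6.16 and 4.43 FPKM; called lower under equal totals), and the summed level of the list ran from 8.80 to 11.6 FPKM in activated B cells and from 37.6 to 39.9 in plasmablasts. Cd8a and Bcl11b were listed at 0 in all 4 libraries, and Cd3e stood at 0.138 FPKM or less. Below 1 FPKM throughout, Cd3d went from 0.0756 and 0.0725 to 0.601 and 0.259. Cd8b1 went from 0 and 0.0674 to 0.782 and 0.241 FPKM. Zap70 (0.376 and 0.144 FPKM in activated B cells) and Icos (0.0560 and 0.0807) were listed at 0 in both plasmablast libraries. Among natural killer markers Eomes rose from 0 and 0.0238 to 5.15 and 6.01 FPKM with Ncr1 and Klrb1c at 0 (summed level 0.334 to 0.890 against 5.52 to 6.99 FPKM). Macrophage markers summed to 46.9 to 61.0 FPKM against 75.8 to 90.0, with C1qa, C1qc and Lyz1 at 0. C1qb went from 0 in both activated B cell libraries to 0.315 and 0.679 FPKM, and Cd14 from 0 to 0.186 and 0.200. Csf1r (0.0466 and 0.0895 against 0.0371 and 0.0399 FPKM) and Marco (0 and 0.920 against 0 and 0.328) were not higher in plasmablasts. Most of the sum was Hmox1 (28.4 and 35.5 FPKM in activated B cells, 42.1 and 56.4 in plasmablasts) and Cd68. Cd68 was called higher, from 10.0 and 9.15 to 28.8 and 27.1 FPKM. Adgre1 fell from 7.84 and 13.2 to 0 and 0.0963, and Mrc1 rose from 0.552 and 0.659 to 4.05 and 5.22. Prg2, the eosinophil granule protein, was at 0.134 and 0 FPKM in activated B cells, 38.6 and 52.5 in pre-plasmablasts and 17.0 and 12.8 in plasmablasts, while its granulocyte companions Mpo, Elane and Epx were at 0. Dendritic cell markers summed to 83.6 to 90.4 FPKM against 385 to 402, with Clec9a and Cd209a listed at 0. Of the 4 tested, Flt3 fell from 21.0 and 18.6 to 6.90 and 7.94 FPKM and Itgax from 1.72 and 0.688 to 0.214 and 0.115; Ly6c2 rose from 0.850 and 0.543 to 26.1 and 24.2 FPKM, and Bst2 made up most of the sum. Markers of stroma and endothelium summed to 42.2 to 57.6 FPKM against 9.29 to 12.1, nearly all of it Pecam1, and those of red cells and platelets stayed at or below 2.10 FPKM in sum. The part of other cells in these results was not tested.

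The pre-plasmablast libraries place these genes along the span. Each step shares libraries with the comparison of the ends, so levels are set side by side. Between activated B cells and pre-plasmablasts limma called 53.4% of genes (27.1% higher and 26.3% lower), and between pre-plasmablasts and plasmablasts 966 (8.73%, with 5.02% higher and 3.70% lower; 248 to 418 with any of its 4 libraries left out). Bcl2l1 stood at 128 and 121 FPKM in pre-plasmablasts, and Impdh1 at 85.4 and 80.5; neither was called in the second step (adjusted p = 0.344 and 0.0712 by limma). Gusb, at 210.3 and 216 FPKM, and Pycr1, at 27.5 and 24.6, stood between the ends and rose again to plasmablasts (second-step adjusted p = 0.00138 and 0.00326 by limma). Tnfrsf17 made most of its rise in the second step (1.71 and 4.59 FPKM in pre-plasmablasts; log2 change 2.76, adjusted p = 0.00226), and Cxcr5 most of its fall (39.9 and 34.9 FPKM; -2.13, adjusted p = 6.63e-06). Apoe, the apolipoprotein of lipid transport, was not called between the ends: it was at 87.1 and 83.1 FPKM in activated B cells, 1237 and 1757 in pre-plasmablasts and 92.6 and 129.8 in plasmablasts (log2 change 0.36, adjusted p = 0.292 between the ends).

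The same populations were sorted from Mzb1-/- animals, in libraries that the wt comparison does not use as samples but that enter the shared estimate of spread. There Mzb1 was at 1008 and 926 FPKM in plasmablasts, against 15434 and 17359 in wt. The labels do not give the deleted part of the gene. Plasmablasts differed from activated B cells in 62.2% of genes, 31.2% higher and 30.9% lower. Ribosome biogenesis genes fell in 34 of 39 and rose in 1, lysosome genes rose in 23 of 37 and fell in 9, autophagy genes rose in 17 of 32 and mitosis genes were called in 12 of 38. Cytosolic ribosomal protein genes rose in 6 of 80 and fell in 27 (median -0.43, beside 0.05 in wt), and oxidative phosphorylation genes rose in 22 of 72 and fell in 8 (median 0.01, beside 0.25 in wt). The differences between the lists' medians were not tested. The difference of the change between genotypes was called in 5 genes (0.0452%, with 0.0181% higher and 0.0271% lower; 459 at an unadjusted p below 0.05; 2 to 10 with any 1 of the 8 libraries left out): Cdkn2a, Mzb1, Atp9a, Tpt1 and the small nucleolar RNA Snora28. The libraries of the genotypes also differ in a pattern of low values: both ko plasmablast libraries and 1 of the 2 ko activated B cell libraries shared the fragment ratio of wt plasmablast replicate 1 in 2.85% to 4.54% of genes below 0.5 FPKM, the wt libraries in 15.2% to 20.5%. The genotypes differ in sex too: wt replicate 1 carried Xist and no Eif2s3y, and all ko libraries carried Eif2s3y (43.0 to 63.5 FPKM) with Xist at 0.389 FPKM or less. The part of the pattern and of sex in the difference was not tested. For Cdkn2a the ko libraries held 49.3 and 47.5 FPKM in activated B cells and 80.6 and 103 in plasmablasts, a log2 change of 0.90 beside 2.91 in wt. The difference of -2.01 (SE 0.23, adjusted p = 0.0128 by limma) came with ko activated B cells above and ko plasmablasts below the wt libraries of the same population.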

How the data were processed

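RNA was measured in 12 libraries, 2 for each of 6 groups. The authors deposited FPKM values per gene symbol, and the submitters' processing notes name the mm9 build, Cuffnorm 2.2.1, Cufflinks 2.2.1, Cuffdiff, TopHat2 2.0.14 and bcl2fastq (2.17.1.14 and 0.3.1). The annotation, the scaling and the use of strand are not given in the sources used here, so genes that overlap or have close copies are uncertain. Per the labels, libraries came from a stranded mRNA kit after oligo-dT selection.

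Values were analysed as log2(FPKM + 1), which understates changes of low genes, for genes that reached 1 FPKM in 2 or more libraries. limma 3.58.1 (trend, R 4.3.3) was fitted with 1 coefficient per group (6 residual and 4.49 prior degrees of freedom). Tests were two-sided, with Benjamini-Hochberg adjustment over all 11069 genes and calls below 0.05. Folds are ratios of FPKM + 1, and SE is that of the limma log2 change. On simulated data for the main comparison (11069 genes), 87% of changes of log2 1 and 98% of log2 2 were recovered, and 4.15% of calls were false. The simulation drew independent normal noise around a common mean per gene and changed 100 genes at each size. It held no difference in scaling or sex. The measured comparison called 62.0% of genes and depended on scaling, so these rates need not hold for it. Relative depth was read from shared fragment ratios of genes below 0.5 FPKM.

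The members and lists were chosen with earlier results of these data known. The rule for named genes took the 3 markers, the 30 called genes without overlap that had the largest log2 change each way at 5 FPKM or more, the 15 with the largest difference in FPKM each way, up to 4 called members each way and 2 without a call from each list, and every tested marker of other cells. The text leaves out many of these, and some results are not reported here. Igtp, Mcoln1, Pik3cd, Ctsa, Atp6v0d1, Atp6v1a, Atp9a, Tpt1 and Snora28 were named after their values were seen, and the promoter motifs were chosen then too. Promoter sequences are RefSeq's, GRCm38.p6; no mm9 coordinates were used. Alternatives were other filters, pseudocounts and scalings, a replicate block, a minimum change, and libraries left out. Figures were drawn with matplotlib 3.10.9.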

Additional observations from a re-analysis of the deposited data

Results flagged for a closer look

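The change from activated B cells to plasmablasts differed between ko and wt in 5 genes by the interaction term of the limma fit, which tests that difference itself. The count ran from 2 to 10 with 1 library left out. Replicate 1 of both wt groups carried Xist, and all ko libraries and wt replicate 2 carried Y-linked genes, so the genotypes differ in sex make-up, whose part was not tested. Mzb1, the deleted gene, stood at 845 and 1016 FPKM in activated B cells and 15434 and 17359 in plasmablasts of wt mice, and at 273 and 289 FPKM in activated B cells and 1008 and 926 in plasmablasts of ko mice, a difference of the log2 changes of -2.36 (SE 0.18, adjusted p = 0.000434 by limma). Cdkn2a had a difference of -2.01 (SE 0.23, adjusted p = 0.0128 by limma), with the wt rise above the ko rise. Atp9a, a membrane lipid flippase, stood at 0.0788 and 0.202 and 3.43 and 3.33 FPKM in the wt populations and at 0.137 and 0.673 FPKM in activated B cells and 23.2 and 25.2 in plasmablasts of ko mice, a difference of 2.25 (SE 0.25, adjusted p = 0.00953 by limma). Tpt1, a growth-linked cytosolic protein with several near-identical copies in the genome, stood at 51.2 and 64.4 and 104 and 113 FPKM in wt and at 71.7 and 65.4 FPKM in activated B cells and 48.3 and 55.6 in plasmablasts of ko mice, a difference of -1.30 (SE 0.16, adjusted p = 0.0194 by limma). Snora28, a small nucleolar RNA that an oligo-dT library captures poorly, was at 76.2 and 33.5 FPKM in wt activated B cells and listed at 0 in all 6 other libraries of these populations, a difference of 5.69 (SE 0.40, adjusted p = 0.000417 by limma). No group had more than 2 libraries, so single libraries were not tested as outliers.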

How the results depend on the processing

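The count of genes called between wt plasmablasts and wt activated B cells stayed within 1.5 times with all genes kept, with genes under 5 FPKM left out, with 0.1 as pseudocount, and under quantile normalization, equal totals and the fit on the compared groups alone. It ran from 5884 to 6176 when 1 of the 4 libraries was left out (2976 to 3123 higher, 2908 to 3053 lower), and was 5264 with replicate 1 of every wt group left out and 6888 without small RNA genes, both chosen after seeing the data. A test against a minimum log2 change of 1 called 1371 genes (861 higher, 510 lower), 886 between pre-plasmablasts and activated B cells, 11 between plasmablasts and pre-plasmablasts, 1331 in ko and 2 for the difference between genotypes, by that test's construction. Equal totals gave 2136 genes higher, 5813 lower and 1454 between plasmablasts and pre-plasmablasts. That last comparison had 532 calls when only the compared groups were fitted, and 382 and 364 without pre-plasmablast replicate 1 or 2 and 418 and 248 without plasmablast replicate 1 or 2 (range 248 to 418). Leaving out a library gave 4866 to 5037 calls between pre-plasmablasts and activated B cells, 5927 to 6134 in ko and 2 to 10 for the difference between genotypes: 2 without replicate 1 of wt activated B cells or replicate 2 of wt plasmablasts, 3 without replicate 1 of ko activated B cells or either ko plasmablast library, and 10 without replicate 2 of ko activated B cells. In each of these fits the lone sample is assumed to vary like the other groups.

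The replicate number was also used as a block. Differences between replicates 1 and 2 of the wt groups correlated across 11069 genes at 0.239 between activated B cells and plasmablasts, 0.316 between pre-plasmablasts and plasmablasts and 0.046 between activated B cells and pre-plasmablasts, not above 0.1 in every pair. Replicate 1 of all 3 wt groups carried Xist (81.4, 35.3 and 33.3 FPKM) with Ddx3y at 0.0479 FPKM or less, and replicate 2 carried Ddx3y (19.1 to 22.03 FPKM), so the wt numbers follow sex. The labels do not say that a number marks an animal, and the block is given as an alternative. With the replicate block 7214 genes were called between plasmablasts and activated B cells (3604 higher, 3610 lower) and 1558 between plasmablasts and pre-plasmablasts. Of a set of 181 named genes, none lost its call and 3 gained one (Lck, Rrm2 and Top2a). The set leaves out some genes of the text, among them Cd68, Hmox1, Ctsa, Atp6v0d1, Atp6v1a, Flt3 and Itgax.

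Genes without a call that turned direction and were called lower under another scaling were Bax with quantile normalization (-0.32) and, under equal totals, Becn1 (-0.40), Ccna2 (-0.38), Mcm2 (-0.38), Tap1 (-0.39) and Tfe3 (-0.33). List medians turned under equal totals for serine, one-carbon and Atf4-linked genes (-0.13), oxidative phosphorylation (-0.16, and -0.12 with quantile normalization), cyclins, Cdks and inhibitors (-0.21), MAP kinases and immediate early genes (-0.087) and ion channels and pumps (-0.12). The cause was not tested. Without counts, the depth behind low values is unknown, so levels under 1 FPKM are the least certain.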
